A study of Mus musculus with 12 samples.

Results

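The phase II conjugating enzymes of mouse liver were taken as every probe set with a single gene symbol in the platform annotation that starts with Gsta, Gstm, Gstp, Gstt, Gstk, Gsto, Gstz, Mgst, Ugt or Sult. The rule found 40 probe sets of 30 genes among the 12488 probe sets of the array. Phase II enzymes attach a polar group to drugs, toxins, steroids and bile pigments, so that these can be excreted in bile or urine. Glutathione S-transferases (GST) add the tripeptide glutathione to reactive electrophiles, UDP-glucuronosyltransferases (UGT) add glucuronic acid, and sulfotransferases (SULT) add sulfate from the donor PAPS. The liver is a main site of all 3 reactions, and hepatocytes are the main source of these enzymes there.

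The 12 Affymetrix mouse arrays of total RNA from liver, taken 4 h after an intraperitoneal injection, form 6 groups of 2. Control mice, albumin-cre(-) Socs3(w/fl), had 1 wild-type and 1 floxed allele of Socs3, whose product limits signalling from cytokine receptors, and no Cre, and were injected with saline (PBS) or with the cytokine interleukin-6 (IL-6). Socs3-deleted mice, albumin-cre(+) Socs3(-/fl), had 1 null and 1 floxed allele together with Cre recombinase from the hepatocyte promoter of albumin, and received the same 2 injections. Ifng-null mice, Interferon-gamma-/-, received PBS or interferon-gamma (IFN-γ). In Socs3-deleted mice 1 allele is null in every cell, and the floxed allele is removed where albumin-Cre is active, so most cells other than hepatocytes keep 1 Socs3 allele. The labels used here give neither strain, sex nor age, and do not say whether the 2 replicates of a group were separate mice. The p-values therefore measure the spread between these arrays, which may be technical.

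Each value is a signal intensity on a linear scale, a log2 change or difference is given ± its standard error (SE), and levels of different probe sets are not set against each other. Array medians lay between 80.6 and 85.7, and replicates correlated across probe sets on the log2 scale with Pearson's r from 0.977 to 0.987. Socs3 read 74.4 to 105.8 on the 4 arrays of Socs3-deleted mice and 117 to 167 on the 4 control arrays on its brighter probe set. On its dimmer probe set it read 52.6 to 68.4 and 78.8 to 113, so the ranges did not overlap on either. Ifng read at most 7.81 on any array, which does not check the Ifng-null label. Alb, the gene of serum albumin and a defining hepatocyte marker, read 10990 to 13413 over the 12 arrays. Prss2, a trypsinogen gene of the exocrine pancreas, read 651 on replicate 2 of the control PBS arrays and 1863 on replicate 2 of the Socs3-deleted PBS arrays, against 22.4 to 27.3 on the other arrays. For comparisons that use these 2 PBS arrays, the members' count below 0 and their median are given with and without them. Counts by family, by lack of overlap or by unadjusted p are given with them only. The summed intensity of 8 erythroid markers was 1047 to 2896 on replicate 1 and 4863 to 8197 on replicate 2 of the 4 control and Socs3-deleted groups, and 1457 to 2589 on the Ifng-null arrays. The part of this spread within groups in the members' values was not tested.

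Testing required an intensity above a floor of 33.01, the 25th percentile of all values, on 2 arrays or more. Of the 40 members 32 probe sets of 25 genes were tested, 31 of them above the floor on all 12 arrays. Sult2b1, which sulfates cholesterol and other hydroxysteroids, passed through 2 arrays, 1 control PBS array at 34.7 and 1 Ifng-null IFN-γ array at 38.8. Its other arrays were set to the floor, so the sign of any change in it comes from these 2 arrays alone. It is kept in the counts of members below. The other 8 probe sets lay below the floor on every array and read at most 27.4. They were those of Gsta1, Sult1c1, Sult2a2, Sult3a1 and Ugt8a (the last being the enzyme that makes galactosylceramide for myelin), and 1 of the probe sets each of Mgst2, Mgst3 and Sult1a1. All later counts refer to the 32 tested probe sets. Of these 12 are Gstm sets of 5 genes, so the counts are not counts of independent genes.

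Promoters are shown for the 3 genes of this set with the smallest p after IL-6 in control mice, because motifs of factors that act downstream of IL-6 or set liver expression can be looked for in them. RefSeq promoter windows (build GRCm38.p6, 250 bases before to 50 after the start site) were at hand for 26 of the 30 genes. Capitals mark matches to 4 motifs searched on both strands. These were the antioxidant response element core TGACNNNGC, the STAT site TTCNNNGAA, the C/EBP site TTGCNNAA and the core GTTAAT of the HNF1 site. The windows lie at chr5:87568957-87569256 on the minus strand for Sult1d1, chr5:86906888-86907187 on the minus strand for Ugt2b34 and chr1:21240335-21240634 on the plus strand for Gsta3.
Sult1d1: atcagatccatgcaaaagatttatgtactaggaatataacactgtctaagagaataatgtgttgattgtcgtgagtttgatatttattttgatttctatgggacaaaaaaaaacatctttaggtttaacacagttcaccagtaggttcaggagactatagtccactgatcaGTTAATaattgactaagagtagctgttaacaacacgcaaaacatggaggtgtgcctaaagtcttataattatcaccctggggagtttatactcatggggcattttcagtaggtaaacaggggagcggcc
Ugt2b34: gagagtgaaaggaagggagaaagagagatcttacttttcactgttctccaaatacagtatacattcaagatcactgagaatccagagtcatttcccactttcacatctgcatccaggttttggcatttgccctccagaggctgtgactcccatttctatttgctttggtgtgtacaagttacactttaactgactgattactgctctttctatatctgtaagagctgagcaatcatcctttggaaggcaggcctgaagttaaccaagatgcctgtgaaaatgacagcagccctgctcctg
Gsta3: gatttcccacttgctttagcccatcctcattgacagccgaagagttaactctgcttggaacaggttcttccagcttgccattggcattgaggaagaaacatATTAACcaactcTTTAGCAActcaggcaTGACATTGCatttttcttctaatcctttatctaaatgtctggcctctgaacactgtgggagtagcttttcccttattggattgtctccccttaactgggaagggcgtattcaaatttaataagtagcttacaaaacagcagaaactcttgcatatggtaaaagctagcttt
The Sult1d1 window holds GTTAAT with its first base at -79 from the start site. The Gsta3 window holds, from the far end, ATTAAC at -149 (the HNF1 core read on the other strand), TTTAGCAA at -137 (the C/EBP site read on the other strand) and TGACATTGC at -121, an antioxidant response element core. The Ugt2b34 window held none of the 4 motifs. Over the 26 members with a window, the antioxidant core was found in 3 (Gsta3, Gstm5 and Mgst1, 11.5%) against 12.4% of 27025 mouse promoters, and the STAT site in 3 (Gsta1, Mgst2 and Sult3a1, 11.5%) against 8.4%. The C/EBP site was found in 5 (Gsta3, Gstm2, Gstt1, Mgst1 and Ugt2b5, 19.2%) against 10.7%, and the HNF1 core in 3 (Gsta3, Sult1a1 and Sult1d1, 11.5%) against 7.2%. Of the 3 genes with a STAT match in this window, Gsta1 and Sult3a1 had probe sets below the floor on every array and were not tested. The tested probe set of Mgst2 read 36.2 to 64.7.

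Among the soluble GST families, Gstp1, the pi class enzyme, read between 8292 and 10459.9 on every array. The alpha class had 4 genes, with Gsta1 below the floor. Gsta2 was the most variable of the other 3: control mice gave 545 and 387 after PBS and 388 and 349 after IL-6, Socs3-deleted mice 553 and 185 after PBS and 191 and 223 after IL-6, and Ifng-null mice 332 to 574. The low PBS value of the Socs3-deleted mice is on the array with pancreatic signal. Gsta3, which in mice detoxifies the epoxide of aflatoxin, read 864 to 1410.2, and Gsta4, which conjugates the lipid peroxidation product 4-hydroxynonenal, read 96.8 to 171.

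The mu class had 12 probe sets of 5 genes, which lie next to each other in a run of 7 protein-coding genes on chromosome 3 that are all named Gstm. Intensities ran from 70.0 for a Gstm5 probe set to 9613 for a Gstm1 probe set. Of these probe sets 93543_f_at (Gstm1), 97681_f_at (Gstm3), 100630_f_at and 161722_f_at (Gstm5) carry the suffix that Affymetrix gives to sets whose probes match several members of a family. Their signal may come from near-identical Gstm copies, and the same holds for 96796_f_at of Ugt2b5. Probe sets of 1 gene never differed by over 1 in a log2 change. The largest gap was that of Gstm2 when Ifng-null were set against control mice, with log2 differences after PBS of -0.24 on 161357_r_at and 0.43 on 93009_at. In each comparison the 4 Gstm5 probe sets lay on both sides of 0.

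The smaller GST classes each had 1 or 2 genes. Gstz1 is maleylacetoacetate isomerase, a step of tyrosine breakdown, and read 1371 to 2989. Gstt1 and Gstt2, theta class enzymes that act on small halogenated compounds and sulfate esters, read 454 to 1089 and 144 to 372. Gsto1, an omega class thioltransferase, read 497 to 724, and Gstk1, the kappa class enzyme of mitochondria and peroxisomes, 512 to 946. Among the microsomal, membrane-bound enzymes Mgst1 read 2048 to 3255 and Mgst3 81.8 to 183. Of the glucuronosyltransferases Ugt2b5 read 3470 to 4684 and Ugt2b34 428 to 751. The sulfotransferases tested were Sult1a1 (191 to 486), the phenol sulfotransferase, Sult1b1 (105 to 168), which sulfates phenols and thyroid hormones, Sult1d1 (67.1 to 153), which in mice sulfates catecholamines, Sult2b1, Sult4a1 (105 to 139.5), an enzyme best known from brain, and Sult5a1 (50.9 to 125). Ugt2b34, Ugt2b5, Sult1b1 and Sult1d1 lie on chromosome 5 in a run of 13 protein-coding genes that all belong to the UGT2 or SULT1 families.

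**Figure D1:**
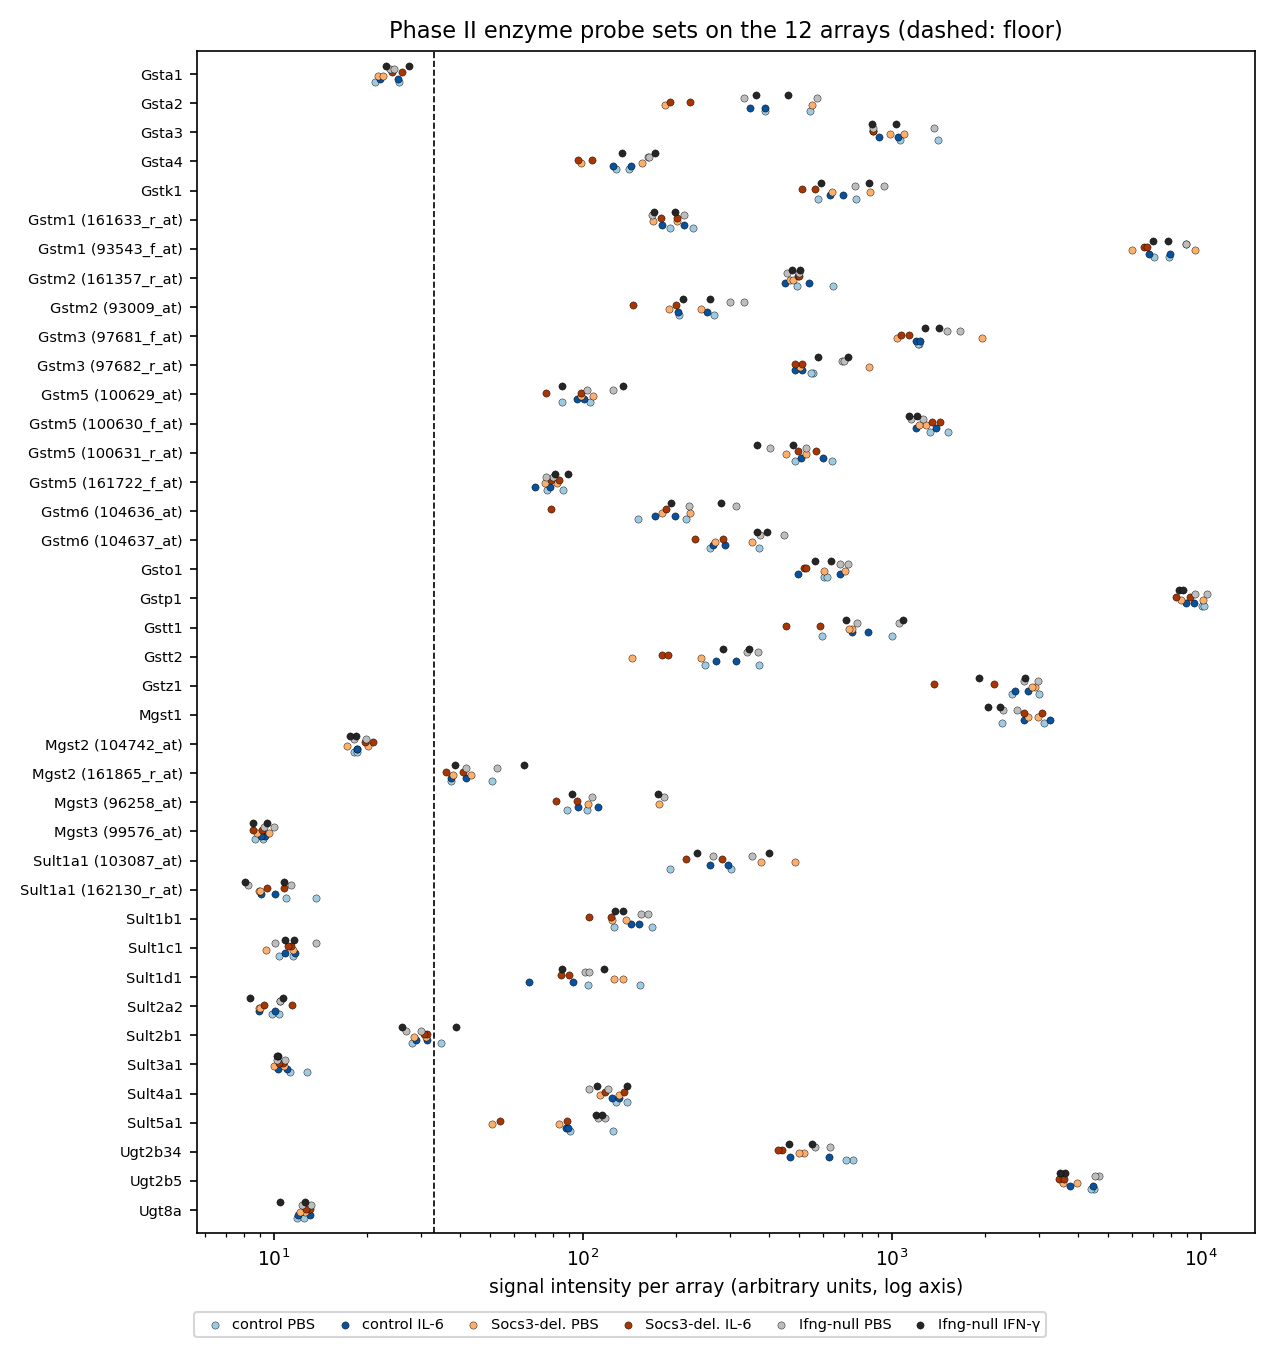
Signal intensity (arbitrary units, log axis) of the 40 probe sets, 1 point per array and 6 colours for the groups of 2 arrays; the dashed line is the floor of 33.01. The 8 untested probe sets lie left of the line on all 12 arrays, Sult2b1 straddles it, and the groups of most members intermingle.

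Which conjugating enzymes respond to IL-6 in a liver with Socs3 was asked in control mice. No member passed the test (0 of 32, limma with Benjamini-Hochberg adjustment over all 9641 probe sets, adjusted p below 0.05), where 0% of all probe sets passed in either direction (0 to 8 probe sets with single arrays left out). Sult1d1 read 153 and 104 after PBS and 67.1 and 92.9 after IL-6. Both IL-6 arrays lay below both PBS arrays, with a log2 change of -0.67 ± 0.22 (95% interval -1.16 to -0.19, limma adjusted p = 1). Ugt2b34 read 751 and 713 after PBS and 467 and 625 after IL-6, again without overlap, a change of -0.44 ± 0.15 on the log2 scale (limma adjusted p = 1). Gsta3 read 1410.2 and 1066 after PBS and 909 and 1051 after IL-6, a change of -0.33 ± 0.21 on the log2 scale (limma adjusted p = 1). Its PBS and IL-6 values were apart by a narrow margin.

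Across the set in control mice 25 of 32 changes after IL-6 were below 0, against 53.9% of all probe sets tested, and the median log2 change was -0.06 against -0.01. By family this held for 10 of 12 Gstm probe sets, 3 of 3 Gsta, 2 of 2 Ugt, 4 of 6 Sult and 1 of 3 Mgst. The Sult count includes Sult2b1 at -0.04, which could not be above 0 because both of its control IL-6 arrays were at the floor. The 2 groups did not overlap for 6 members, all lower after IL-6 (14.3% of all probe sets were lower in this way and 12.6% higher), and these were Gsta3, Gstm3 (97682_r_at), Gstp1, Sult1d1, Sult5a1 and Ugt2b34. An unadjusted limma p below 0.05 was reached by 2 members, Sult1d1 and Ugt2b34, both lower, where 0.747% of all probe sets were lower and 1.83% higher at that p. With 2 arrays against 2 the test was coarse: at the members' median SE of 0.20 a 3.65-fold change would have been needed to pass, and the largest member change was 1.60-fold, so missing the threshold does not show that a member stayed the same. Without control PBS replicate 1, on which 23 of 32 members read higher than on replicate 2, 17 of 32 changes were below 0 (median -0.04). Without control IL-6 replicate 1 the count was also 17 (median -0.03), without control IL-6 replicate 2 it was 25 (median -0.10), and without control PBS replicate 2, which has pancreatic signal, it was 27 (median -0.15). In these bulk samples fewer cells of a type and less RNA per cell cannot be told apart.

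IL-6 given to Socs3-deleted mice asks how the enzymes respond in livers with Cre in hepatocytes and less Socs3, a brake on IL-6 signalling. Again 0 of 32 members passed, where 1.17% of all probe sets did, 1.03% as higher and 0.145% as lower. Gstz1 had the smallest p: it read 2911 and 2846 after PBS and 1371 and 2151 after IL-6. The 4 values did not overlap, and 1 of the IL-6 arrays was the lowest of all 12, with a log2 change of -0.75 ± 0.22 (95% interval -1.25 to -0.24, limma adjusted p = 0.2). Sult1a1 read 486 and 376 after PBS and 216 and 281 after IL-6, a change of -0.79 ± 0.30 on the log2 scale (limma adjusted p = 0.342). The IL-6 values of Sult1a1 lay within the range of control mice (191 to 303), and the PBS values lay above it. Sult1d1 read 135 and 126 after PBS and 89.9 and 85.3 after IL-6, a change of -0.58 ± 0.22 on the log2 scale (limma adjusted p = 0.342), close to its change of -0.67 in control mice.

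Further members whose IL-6 arrays lay below both PBS arrays in Socs3-deleted mice were Gsta3, Gstk1 (log2 change -0.45), Gsto1 (-0.32), Gstt1 (-0.51), Mgst3 (-0.62), Sult1b1 (-0.21) and Ugt2b34 (-0.23), none past the test. In all 10 members were lower in this way and 2 higher, Gstm2 (161357_r_at) and Gstm5 (100630_f_at), where 21.1% and 19.0% of all probe sets were. The other Gstm2 probe set, 93009_at, had a log2 change of -0.33. The other Gstm5 probe sets had -0.25 (100629_at), 0.12 (100631_r_at) and 0.04 (161722_f_at). Of the 32 log2 changes 23 were below 0 and 1 was 0 (Sult2b1, at the floor on all 4 arrays), against 48.7% of all probe sets below 0. The median was -0.24 against 0.00. Members with an unadjusted limma p below 0.05 were 3, Gstz1, Sult1a1 and Sult1d1, all lower, where 5.55% of all probe sets were lower and 5.28% higher at that p. A 2.04-fold change would have been needed to pass at the median SE, against a largest member change of 1.73-fold. Microsomal Mgst1 read 2759 and 2966 after PBS and 3062 and 2679 after IL-6 (log2 change 0.00, 95% interval -0.37 to 0.37).

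These counts rest on the 2 PBS arrays of Socs3-deleted mice, which differ from each other: 25 of 32 members read higher on replicate 1, for example Gsta2 (553 and 185), Gstm3 (1956 and 1043 on 97681_f_at) and Mgst3 (177 and 104). All probe sets tested moved as well: their median was 0.04 with 41.1% below 0 without replicate 1, and -0.03 with 57.9% below 0 without replicate 2. Without replicate 1 the median log2 change of the members was -0.04 with 18 of 32 below 0. Without replicate 2, the array with the highest pancreatic signal, it was -0.32 with 26 below 0, and Gstm3 (97681_f_at) passed. Gstm3 then read 1956 after PBS and 1073 and 1134 after IL-6, with a change of -0.83 ± 0.13 on the log2 scale (limma adjusted p = 0.049), where the fit assumes that the lone PBS array varies like the other groups. On replicate 2 it read 1043, below both IL-6 arrays. Without both arrays with pancreatic signal the median was again -0.32 with 26 below 0, and 0 members passed, where 9 probe sets of all did. Without Socs3-deleted IL-6 replicate 1 it was -0.14 with 25 below 0.

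**Figure D2:**
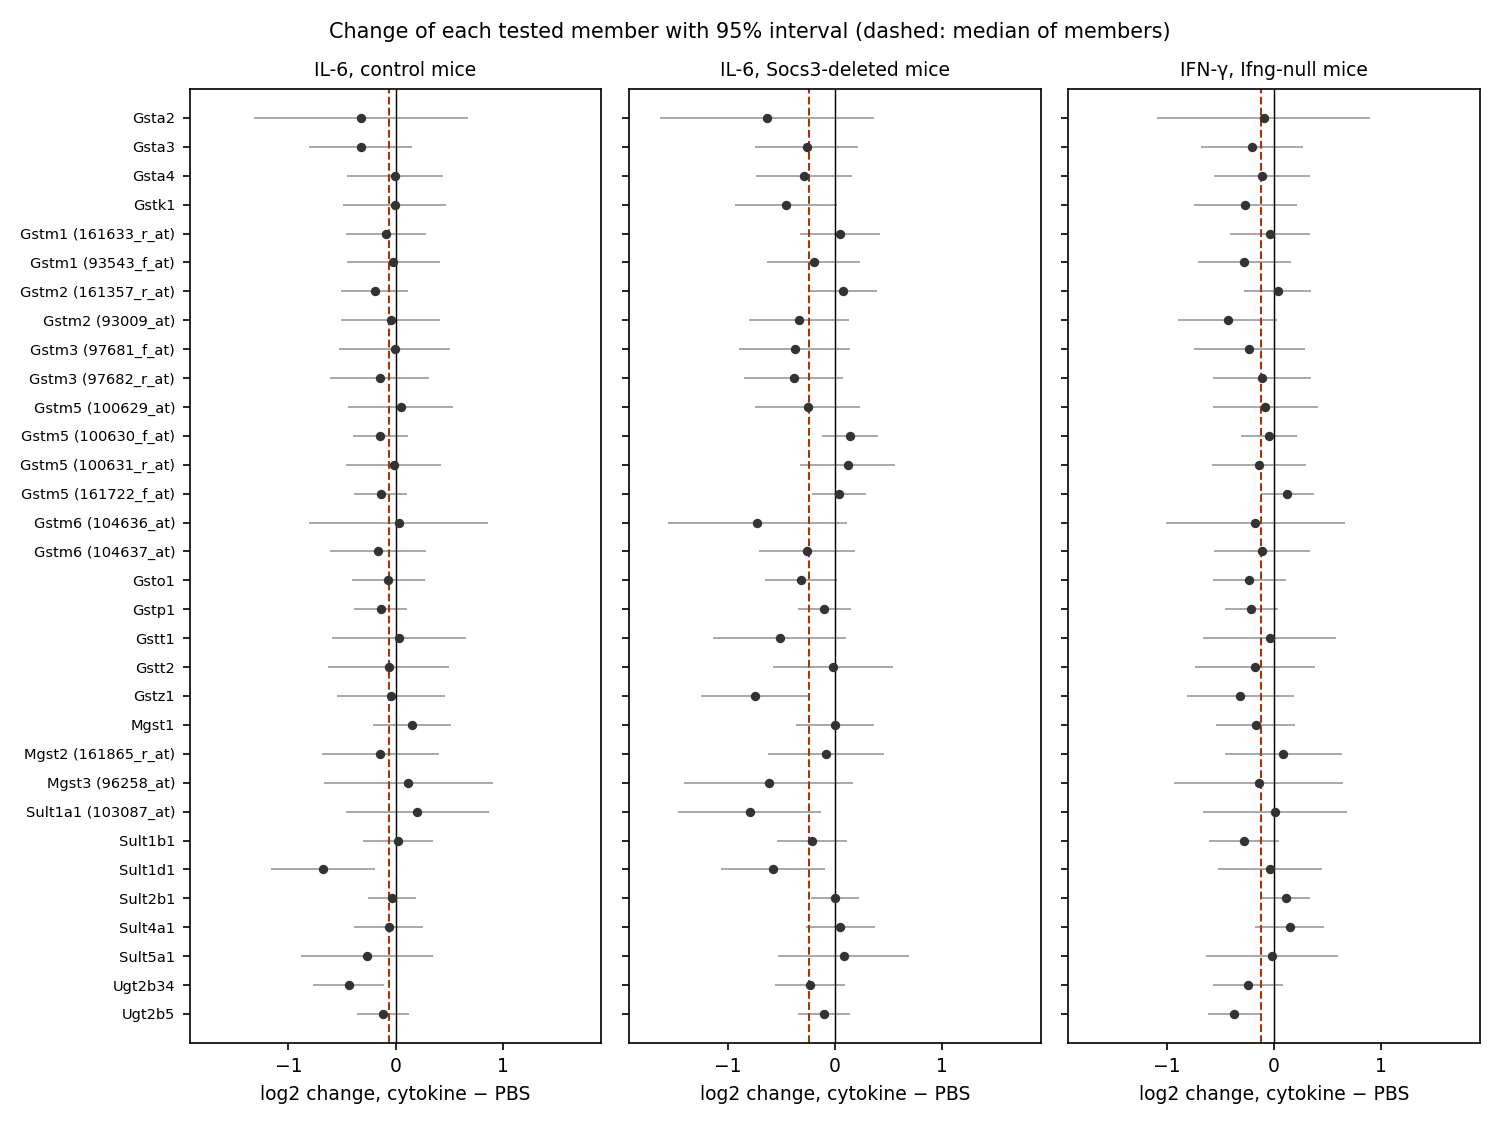
Log2 change after the cytokine against PBS for the 32 tested probe sets (points) with 95% intervals (lines) in 3 panels, IL-6 in control mice, IL-6 in Socs3-deleted mice and IFN-γ in Ifng-null mice; the dashed line is the members' median in each panel (-0.06, -0.24 and -0.12). Most points lie left of 0, and most intervals reach across it.

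Whether the IL-6 response differs between the genotypes was tested directly. No member passed for this difference (0 of 32, limma adjusted p), where 0.0415% of all probe sets did, all of them with the higher change in Socs3-deleted mice. Sult1a1 had a log2 change of 0.20 in control and -0.79 in Socs3-deleted mice, a difference of -0.996 ± 0.42 (95% interval -1.94 to -0.05, limma adjusted p = 0.999), and was the single member with an unadjusted p below 0.05 (1.76% of all probe sets below 0 and 2.18% above 0 had one). Gstz1 had changes of -0.04 and -0.75, a difference of -0.70 ± 0.31 (limma adjusted p = 0.999), and Mgst3 at -0.74 and Gstm5 (100630_f_at) at 0.29 came next by p. For Sult1d1 the difference was 0.10, with a 95% interval of -0.59 to 0.78, which spans differences in either direction. Of the 32 differences 17 were below 0 (47.3% of all probe sets) and the median was -0.12, which went to 0.09 without Socs3-deleted PBS replicate 1 and to -0.24 without control PBS replicate 1. Without both arrays with pancreatic signal it was -0.08 with 21 below 0.

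Averaged over both Socs3 genotypes, 4 PBS arrays stood against 4 IL-6 arrays. Sult1d1 was the single member whose groups did not overlap: the PBS arrays read 104 to 153 and the IL-6 arrays 67.1 to 92.9 (1.45% of all probe sets were lower in this way and 1.41% higher). Its log2 change was -0.63 ± 0.15 (95% interval -0.97 to -0.28, limma adjusted p = 0.127). No member passed (0 of 32, limma), where 1.06% of all probe sets did, 0.913% as higher and 0.145% as lower. An unadjusted p below 0.05 came with 4.27% of all probe sets as lower and 4.92% as higher, and with 3 members, all lower: Sult1d1, Ugt2b34 (log2 change -0.33, adjusted p = 0.261) and Gstz1 (-0.39, adjusted p = 0.442). Of the 32 changes 29 were below 0, against 53.9% of all probe sets, and the 3 others were Mgst1 and 2 of the Gstm5 probe sets. The 29 include Sult2b1 at -0.02, which could not be above 0 because its IL-6 arrays were at the floor. The median was -0.13, and -0.31 without the 2 arrays with pancreatic signal, where 28 were below 0. Without Socs3-deleted PBS replicate 1 it was -0.08 with 23 below 0, without replicate 2 of that group -0.25 with 30 below 0, and without Socs3-deleted IL-6 replicate 2 it was -0.20 with 27 below 0. Of all probe sets 46.8%, 59.8% and 48.7% were then below 0, in that order.

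**Figure D3:**
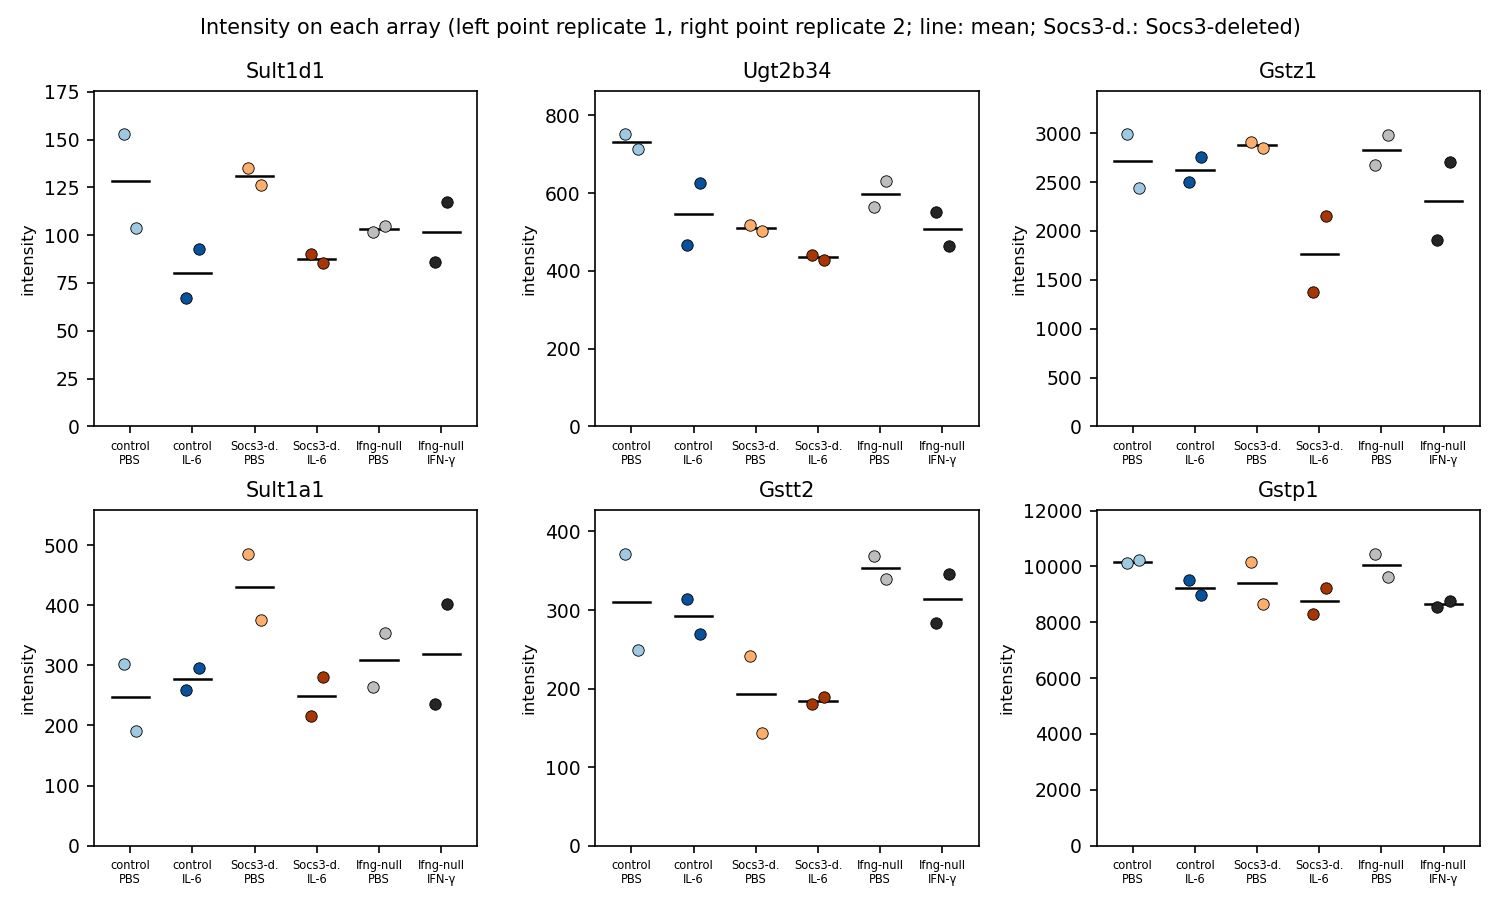
Intensity on each array (vertical axis from 0) of Sult1d1, Ugt2b34, Gstz1, Sult1a1, Gstt2 and Gstp1 in the 6 groups; each point is an array and each line the mean of 2. Sult1d1 is lower on all 4 IL-6 arrays than on the 4 PBS arrays of control and Socs3-deleted mice, and Gstt2 is lower on all 4 Socs3-deleted arrays than on the 4 control arrays.

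IFN-γ was given to mice that cannot make their own. No conjugating enzyme passed after it (0 of 32, limma), where 0.653% of all probe sets did, 0.612% as higher and 0.0415% as lower. Ugt2b5 had the smallest p: it read 4684 and 4560.1 after PBS and 3641 and 3515 after IFN-γ, without overlap. Its log2 change was -0.37 ± 0.11 (95% interval -0.61 to -0.13, limma adjusted p = 0.341), and it was the single member with an unadjusted p below 0.05, where 3.61% of all probe sets were lower and 3.32% higher at that p. Gstp1 read 10459.9 and 9609 after PBS and 8531 and 8772 after IFN-γ, a change of -0.21 ± 0.11 on the log2 scale (limma adjusted p = 0.805). Gstm2 (93009_at) read 298 and 331 after PBS and 211 and 257 after IFN-γ, a change of -0.43 ± 0.21 on the log2 scale (limma adjusted p = 0.765). The PBS arrays lay above the IFN-γ arrays for each of these 3 probe sets. The other Gstm2 probe set, 161357_r_at, read 501 and 459 after PBS and 477 and 506 after IFN-γ, with overlap (log2 change 0.03).

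Across the set 26 of 32 changes after IFN-γ were below 0, against 60.8% of all probe sets, with a median log2 change of -0.12 against -0.03. The groups did not overlap for 9 members lower after IFN-γ and 1 higher (Gstm5, 161722_f_at), where 17.0% and 9.57% of all probe sets did not. The lower members were Gstm1 (93543_f_at), Gstm2 (93009_at), Gstm3 (97681_f_at), Gsto1, Gstp1, Mgst1, Sult1b1, Ugt2b34 and Ugt2b5, with log2 changes from -0.43 to -0.17. Sult1d1, the member with the smallest p after IL-6 over both genotypes, read 101 and 105 after PBS and 85.8 and 117 after IFN-γ (log2 change -0.04, 95% interval -0.52 to 0.45). A 2.16-fold change would have been needed to pass at the median SE, against a largest member change of 1.35-fold. Without IFN-γ replicate 1 the median was -0.03 with 18 of 32 below 0, and without IFN-γ replicate 2 it was -0.29 with 26 below 0. Of all probe sets 60.7% and 52.9% were then below 0, in that order.

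The difference between Socs3-deleted and control mice without an injected cytokine was read from the PBS arrays. In every comparison of these genotypes, loss of Socs3 in hepatocytes, Cre itself and the null allele in other cells cannot be told apart. No member passed between Socs3-deleted and control mice (0 of 32, limma), where 0% of all probe sets did in either direction (0 to 8 probe sets with single arrays left out). Ugt2b34 read 519 and 501 in Socs3-deleted and 751 and 713 in control mice, a log2 difference of -0.52 ± 0.15 (95% interval -0.85 to -0.19, limma adjusted p = 0.721). Gstt2 read 242 and 144 in Socs3-deleted and 372 and 249 in control mice, a difference of -0.71 ± 0.25 on the log2 scale (limma adjusted p = 0.951). Sult1a1 went the other way, 486 and 376 against 303 and 191, a difference of 0.83 ± 0.30 on the log2 scale (limma adjusted p = 0.951). Sult5a1 read 50.9 and 84.0 in Socs3-deleted and 125 and 90.7 in control mice, a difference of -0.71 ± 0.27 on the log2 scale (limma adjusted p = 0.951). These 4 members, 3 lower and 1 higher, had an unadjusted p below 0.05 (1.85% of all probe sets as lower and 2.32% as higher), and none of their groups overlapped. In all 6 members were lower and 2 higher without overlap, where 17.9% and 15.6% of all probe sets were. Of the 32 differences 20 were below 0 (54.2% of all probe sets) and the median was -0.08. Without both arrays with pancreatic signal 17 were below 0 (45.5% of all probe sets) and the median was -0.04. This median changed sign with single arrays: it was 0.05 without control PBS replicate 1, 0.03 without Socs3-deleted PBS replicate 2 and -0.20 without Socs3-deleted PBS replicate 1.

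After IL-6 most members read lower in Socs3-deleted than in control mice, though none passed the test. Of 32 log2 differences 26 were below 0 and 1 was 0 (Sult2b1), against 54.1% of all probe sets below 0, with a median of -0.16 against -0.01. The groups did not overlap for 14 members lower in Socs3-deleted mice and 1 higher (Gstm5, 161722_f_at), where 22.7% and 17.6% of all probe sets did not. The lower members included 3 of 3 Gsta, 2 of 2 Gstt and 2 of 2 Ugt probe sets, but 3 of 12 Gstm. No member passed (0 of 32, limma), where 0.954% of all probe sets did, 0.861% as higher and 0.0934% as lower. Gstz1 read 1371 and 2151 in Socs3-deleted and 2498 and 2754 in control mice, a difference of -0.61 ± 0.22 on the log2 scale (limma adjusted p = 0.397). Gstt2 read 180 and 189 against 314 and 269, a difference of -0.66 ± 0.25 on the log2 scale (limma adjusted p = 0.429). Sult1b1 read 123 and 105 against 143 and 152, a difference of -0.38 ± 0.15 on the log2 scale (limma adjusted p = 0.436). These 3 had an unadjusted p below 0.05, where 4.02% of all probe sets were lower and 5.06% higher at that p. Gstt1, at 454 and 588 against 839 and 744, had a log2 difference of -0.61, and Gsta2, at 191 and 223 against 388 and 349, one of -0.83 with a 95% interval of -1.83 to 0.16. The members' median stayed between -0.24 (without control IL-6 replicate 1) and -0.10 (without control IL-6 replicate 2), and 21 to 28 of 32 stayed below 0, when each array was left out in turn.

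Averaged over both injections, 4 Socs3-deleted arrays stood against 4 control arrays. Gstt2 was the single member without overlap, at 144 to 242 in Socs3-deleted and 249 to 372 in control mice (3.10% of all probe sets were lower in this way and 1.86% higher). Its log2 difference was -0.68 ± 0.18 (95% interval -1.08 to -0.29, limma adjusted p = 0.142). Ugt2b34 had the smallest p, with a difference of -0.42 ± 0.10 on the log2 scale (limma adjusted p = 0.127). Its groups met at 1 control IL-6 array of 467, below both Socs3-deleted PBS arrays. Ugt2b5 (-0.23), Sult5a1 (-0.53) and Sult1b1 (-0.26) also had an unadjusted p below 0.05, 5 members in all, each lower, where 4.15% of all probe sets were lower and 5.64% higher at that p. No member passed (0 of 32, limma), where 0.799% of all probe sets did (0.612% as higher and 0.187% as lower), and 25 differences were below 0, against 56.4% of all probe sets, with a median of -0.09. Without both arrays with pancreatic signal 20 were below 0, against 49.6% of all probe sets, with a median of -0.08. Single arrays moved the median to -0.04 with 21 below 0 (without Socs3-deleted PBS replicate 2), -0.05 with 23 below 0 (without control IL-6 replicate 2), -0.13 with 27 below 0 (without control IL-6 replicate 1) and -0.17 with 28 below 0 (without Socs3-deleted PBS replicate 1). At the median SE a 1.70-fold difference would have been needed, and that of Gstt2 was 1.60-fold.

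Ifng-null and control mice were compared after PBS. The control mice carry a floxed Socs3 allele, and the labels used here give no strain, sex or age. Loss of Ifng and other differences between these mice therefore cannot be told apart. No member passed (0 of 32, limma), where 0% of all probe sets did, and none had an unadjusted p below 0.05 (1.96% of all probe sets as higher and 1.12% as lower). Here 19 of 32 log2 differences were above 0 and 13 below, with a median of 0.11, while 52.6% of all probe sets were below 0. The groups did not overlap for 10 members higher in Ifng-null mice and 3 lower, where 12.6% and 15.1% of all probe sets did not. The higher members included 6 of the 12 Gstm probe sets, such as Gstm6 (104637_at), which read 375 and 449 in Ifng-null and 372 and 257 in control mice (log2 difference 0.41 ± 0.20, limma adjusted p = 0.873). Ugt2b34, at 565 and 630 against 751 and 713, was among the lower ones, as was Gstm5 at -0.24 on 100630_f_at (for Ugt2b34 log2 difference -0.29 ± 0.15, limma adjusted p = 0.873). The 4 Gstm5 probe sets disagreed, with log2 differences from -0.28 to 0.25. The direction of the median rested on 1 control array: without control PBS replicate 2, which has pancreatic signal, it was -0.03 with 18 of 32 below 0, and without replicate 1 it was 0.20 with 9 below 0.

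The members' level was also read array by array, as the median log2 deviation of the 32 members from their own mean over the 12 arrays. Both IL-6 arrays of Socs3-deleted mice were the lowest, at -0.23 and -0.18, with 5 and 4 of 32 members above their own mean. Socs3-deleted PBS arrays gave 0.08 and -0.11, control PBS arrays 0.14 and -0.03, control IL-6 arrays -0.07 and 0.02. Ifng-null PBS arrays were the highest pair, at 0.13 and 0.25, and the IFN-γ arrays gave -0.09 and 0.13. Replicates of 4 groups thus fell on opposite sides of 0. All probe sets tested stayed between -0.06 and 0.03 on every array.

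**Figure D4:**
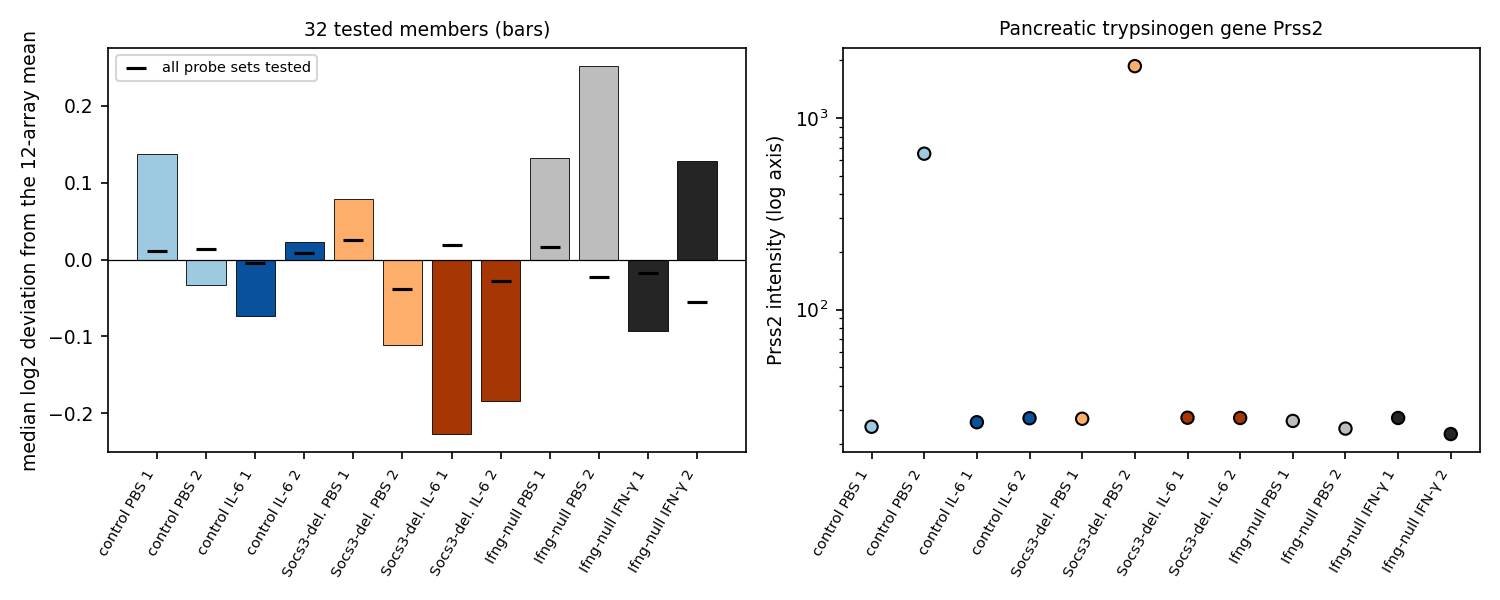
Left, median log2 deviation of the 32 tested members from their own 12-array mean on each array (bars), with that of all 9641 probe sets tested (dashes); right, Prss2 intensity on each array (log axis). Bars of replicates have opposite signs in 4 of the 6 groups, both Socs3-deleted IL-6 bars are the lowest, and Prss2 is high on 2 PBS arrays.

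Marker genes of hepatocytes and macrophages were read beside the members. Of 13 hepatocyte markers all 13 log2 changes were below 0 after IL-6 in Socs3-deleted mice (median -0.32), and 1 passed as lower (Hpd, an enzyme of tyrosine breakdown, at -0.57 on the log2 scale, limma adjusted p = 0.046). All 13 were also below 0 after IFN-γ (median -0.26) and between genotypes after IL-6 (median -0.23), and 10 were after IL-6 in control mice (median -0.07). The summed marker intensity was 62600 to 64797 on Socs3-deleted IL-6 arrays and 72723 to 80015 on the PBS arrays of these mice, 68731 to 72676 and 70410.4 to 77042 in control mice after IL-6 and PBS, and 60696 to 64260.1 and 71804 to 72026 in Ifng-null mice after IFN-γ and PBS. Of 13 Kupffer cell and macrophage markers 10 were above 0 after IL-6 in either genotype, with medians of 0.10 in control and 0.15 in Socs3-deleted mice. Cd14, a receptor for bacterial lipopolysaccharide that is also on the acute phase list below, passed as higher in Socs3-deleted mice (log2 change 1.34, limma adjusted p = 0.00121), where 1.03% of all probe sets did. Between genotypes 13 of 13 were above 0 after PBS (median 0.32) and 12 of 13 after IL-6 (median 0.43). The part of these cell type markers in the members' values was not tested.

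Genes that feed or accompany the conjugating enzymes were read from 5 lists, and no gene of these lists passed in any of the 9 comparisons (limma). The list of UDP-glucuronate and PAPS supply had 9 genes tested. All 9 had log2 changes below 0 after IFN-γ, with a median of -0.40, and 7 after IL-6 in each Socs3 genotype, with medians of -0.15 (control) and -0.30 (Socs3-deleted). In Socs3-deleted mice Slc26a1, a sulfate transporter gene, read 299 and 390.0 after PBS and 164 and 189 after IL-6, a change of -0.96 ± 0.22 on the log2 scale (limma adjusted p = 0.0954). Of 12 genes of glutathione synthesis and use 7 were below 0 after IL-6 in each genotype (medians -0.01 in control and -0.10 in Socs3-deleted mice) and 10 after IFN-γ (median -0.11). Of 11 other conjugating enzymes, which methylate, acetylate or couple amino acids, 6 and 7 were below 0 after IL-6 (medians 0.00 and -0.21) and 8 after IFN-γ (median -0.13). Of 18 other targets of Nrf2, the transcription factor of the antioxidant response, 11 and 13 were below 0 after IL-6 (medians -0.03 and -0.10) and 15 after IFN-γ (median -0.21). Of 20 regulators of these enzymes, such as nuclear receptors and liver transcription factors, 13 and 16 were below 0 after IL-6 (medians -0.07 and -0.24) and 15 after IFN-γ (median -0.09). Between Socs3-deleted and control mice after IL-6, 14 of these 20 regulators were below 0 and 6 above, with a median of -0.26. Cebpb, a regulator of acute phase genes, was among those above. It read 2596 and 1964 in Socs3-deleted and 1058 and 505 in control mice after IL-6, a difference of 1.63 ± 0.50 on the log2 scale (limma adjusted p = 0.262).

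Acute phase genes, which IL-6 is known to induce in hepatocytes, were read on the same arrays. Of 21 genes 20 had log2 changes above 0 after IL-6 in control mice, with a median of 0.65 and 0 passing (limma). In Socs3-deleted mice 17 were above 0 after IL-6, with a median of 0.13 and 2 passing (A2m and Cd14, the same Cd14 result as among the macrophage markers). Of all probe sets 1.03% passed as higher there. These genes differed between genotypes already after PBS, where 20 of 21 were higher in Socs3-deleted mice with a median log2 difference of 0.92 and 0 passing.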

How the data were processed

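Liver RNA was measured on 12 Affymetrix arrays, 2 for each of 6 groups. The deposited table holds 1 linear signal intensity per probe set and array; the software, background correction and scaling are not given in the sources used here. Across arrays the 2% trimmed means agreed within 1.097-fold, so values were used as deposited. Probe sets were named from the platform annotation: 10833 had 1 symbol, 396 several and 1193 none, and all 40 members matched a current gene by Entrez identifier. After leaving out 66 control probe sets, intensities below 33.01 were set to that floor, which understates changes of dim genes, and log2 was taken. The 9641 probe sets above it on at least 2 arrays were tested with limma 3.58.1 in R 4.3.3: 6 group means over all 12 arrays, eBayes with 6 residual and 3.38 prior degrees of freedom, two-sided tests in 9 comparisons, Benjamini-Hochberg adjustment over all probe sets tested, threshold 0.05. Intervals come from the moderated t distribution. The code was tested on simulated data. An exact permutation test of 2 arrays against 2 cannot give a p below 0.333, so none was used.

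The enzyme families, the gene lists and the tests were chosen with earlier results of these data known. Each listed gene was represented by its brightest probe set. Members were named by smallest p, 4 per comparison and 2 per family; from a list, called genes or the 2 of smallest p. Beside the lists in the results, markers of exocrine pancreas, erythroid, endothelial, cholangiocyte, stellate, neutrophil and T and NK cells and sex-biased liver genes were counted. The replicate numbers were not taken as pairs, since the labels tie them to no shared animal, litter or day.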

Additional observations from a re-analysis of the deposited data

How the results depend on the processing

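Alternatives were quantile normalization, floors at the 10th or 50th percentile or none, dropping the filter, array weights, an intensity trend, fits to the compared arrays alone, a replicate block, leaving out each array, and leaving out the 2 arrays with high pancreatic signal. A crossed block for Ifng-null against control mice after PBS and a separate replicate block within each genotype were added after seeing the data. The number of members passing was 0 in each comparison under all of them, the replicate block, the crossed block and the block within genotype (0 members each) included, with 1 exception: leaving out single arrays gave 0 to 1 for IL-6 in Socs3-deleted mice, the 1 being Gstm3 without Socs3-deleted PBS replicate 2. For the members named by rule, 902 of 902 recomputed log2 changes kept their direction and their side of the threshold. These members were named for the smallest p in the same data, none of them passed, and many settings leave a log2 change as it was. That count is therefore no test of how stable they are. The members' median moved by under the spread between replicates (0.11) in 188 of 198 recomputations. Many of these leave a median unchanged by construction, such as leaving out an array of a group outside the comparison. The spread also exceeds some medians, so a change of sign can stay under it. For Socs3-deleted against control mice after PBS, -0.08 became 0.03 without Socs3-deleted PBS replicate 2. The count therefore does not show that the medians are stable. Deviations from the group means of same-numbered arrays correlated at 0.14 between PBS and cytokine arrays in control, 0.12 in Socs3-deleted and 0.66 in Ifng-null mice, and from -0.25 to 0.31 between groups of different genotypes. With 2 numbers per group this is a hint from the data, not the design. Under the block within genotype the smallest adjusted p of a member was 0.136 for IL-6 in Socs3-deleted mice and 0.254 for IFN-γ, and 159 and 66 of all probe sets passed. Over all probe sets the number passing depended more on the setting. For IL-6 in Socs3-deleted mice 113 became 33 to 113 with single arrays left out, 160 with array weights, 28 with no filter, 42 with the higher floor, 9 without the 2 pancreatic arrays and 1 from the 4 arrays alone. For IFN-γ 63 became 20 to 63 with single arrays left out, 28 with array weights, 19 without the pancreatic arrays, 12 with the higher floor, 10 from the 4 arrays alone and 8 with no filter. Between genotypes after IL-6, 92 became 13 to 95, 223 with array weights and 0 from the 4 arrays alone. For IL-6 over both genotypes 102 became 20 to 92, 4 without the pancreatic arrays, 142 with array weights and 148 with the block within genotype. For Socs3 over both injections 77 became 11 to 64, 6 without the pancreatic arrays and 142 with array weights. The difference between the IL-6 responses had 4, and 0 to 15. IL-6 in control mice and Socs3 deletion after PBS had 0, and 0 to 8 with single arrays left out. The causes were not tested. With 2 arrays a group, member changes under 1.67-fold to 5.23-fold, by comparison, could not have passed at the median SE.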

Other observations

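The Ugt1a family shares its last exons, and its probe set here carries several symbols, so it lies outside the single-symbol rule. Control mice gave 5352 and 5082 after PBS and 4403 and 5066 after IL-6, and Socs3-deleted mice gave 4107 and 4089 after PBS and 4016 and 4362 after IL-6. The 4 Socs3-deleted arrays thus lay below the 4 control arrays, with a log2 difference of -0.26 ± 0.08 (SE; 95% interval -0.44 to -0.08; limma adjusted p = 0.254). In Ifng-null mice it read 5015 and 5243 after PBS and 3886 and 4593 after IFN-γ, without overlap, at a log2 change of -0.28 ± 0.12 SE, which did not pass (limma adjusted p = 0.661). Like Ugt2b34 and Ugt2b5 it was therefore lower in Socs3-deleted mice after PBS, at a log2 difference of -0.35 against -0.52 and -0.24, with none of the 3 past the test.

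Marker lists of other cells had these median log2 changes after IL-6 in control mice, IL-6 in Socs3-deleted mice and IFN-γ, in that order. Exocrine pancreas (14 genes) gave -1.06, -1.69 and -0.06, and its summed intensity was 11786 and 27534 on the 2 PBS arrays named in the results against 2190 to 2410 on the others. Erythroid markers (8 genes), whose sums by array are given in the results, gave -0.06, -0.16 and 0.00, endothelial (9) -0.02, 0.04 and -0.19, and cholangiocyte (5) 0.08, -0.02 and -0.08. Stellate cell markers (11) gave 0.01, -0.11 and -0.02, neutrophil (8) -0.03, 0.00 and -0.01, T and NK cell (3) -0.01, 0.16 and -0.08, and sex-biased liver genes (10) -0.17, -0.07 and -0.06. No gene of these lists passed in any of these 3 comparisons (limma adjusted p).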
